A study of Mus musculus with 9 samples.

Results

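Genes of lysosomal enzymes and lysosomal membrane proteins were followed in the livers of mice on 3 diets. The set held 32 genes, picked by name for their products' place in the lysosome. The choice was made with earlier results of these data known. Shares of members beside those of all features are therefore descriptions and not tests. The set comprised 11 cathepsins, 2 other proteases, 7 glycosidases, 4 proteins of lipid hydrolysis or lipid binding and 8 membrane proteins. All 32 were on the array, with 56 probes. For 31 of them at least 1 probe was well above background on 3 or more of the 9 arrays, so that 31 of the 17635 genes and transcripts tested belonged to the set. Ctsk, which encodes cathepsin K, the collagen-cutting protease of osteoclasts, was well above background only on chow 1 and was not tested.

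Lysosomes are acidic organelles in which proteins, glycans and lipids that arrive by endocytosis, phagocytosis and autophagy are cut to their building blocks. Most soluble hydrolases receive a mannose 6-phosphate tag in the Golgi and are delivered by receptors, while the membrane proteins line the organelle, protect its wall and export cholesterol, ions and other products. In liver, hepatocytes and Kupffer cells, the resident macrophages, both hold many lysosomes. Many lysosomal genes carry an E-box like site, the CLEAR element, near their start, to which the transcription factor TFEB and its relatives bind.

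The livers came from male C57bl/6J mice aged 16 weeks. HFD+APS livers came from mice fed for 12 weeks on the high-fat diet D12492, with 60 kcal% fat, into which Astragalus polysaccharides (APS) were mixed at 40 g per kg of diet. HFD livers came from mice fed the same high-fat diet without APS, and chow livers from mice on chow food, also for 12 weeks. Each group had 3 arrays, 1 per liver. The study kept 24 mice, and the 3 livers of a group were picked after histological staining and a triglyceride measurement, so they are not a random draw from the group.

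Values are log2 signals of 1 probe per gene relative to the 75th percentile of the same array, so a difference of 1 is a doubling, and a value below 0 lies under that percentile. The level of one probe says nothing about the level of another. All 3 chow arrays lay on slide 1, the 3 HFD arrays and HFD+APS 1 on slide 2, and HFD+APS 2 and 3 on slide 3. Diet and slide therefore cannot be told apart in HFD against chow. The share of probes well above background was 63.5% and 64.5% on slide 3, between 50.4% and 54.1% on slide 2 and between 61.5% and 68.4% on slide 1. On chow 2 the macrophage markers were lowest, and on HFD 3 the monocyte and neutrophil markers were highest, so counts without these 2 arrays are given beside the main ones. No spot was saturated, and precision is set by there being 3 arrays per group.

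A pair of probes shows what the arrays read. Each is 60 bases long, was taken from the array design, and its mm9 coordinates span more bases than its length, so that it reads across an intron.
Ctsd probe (chr7:149562628-149562781, - strand): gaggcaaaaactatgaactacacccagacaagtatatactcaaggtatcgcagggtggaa
Ctsk probe (chr3:95310647-95310891, + strand): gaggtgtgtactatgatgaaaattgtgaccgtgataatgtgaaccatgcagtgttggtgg
The first spanned 154 genomic bases and was the second probe of Ctsd, the gene of cathepsin D. The second spanned 245 genomic bases and was the probe of Ctsk that was not well above background on 8 of the 9 arrays.

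Promoters of the set were searched for the core of the CLEAR element in RefSeq windows of GRCm38.p6, from 250 bases before to 50 bases after each gene's start. The letters TCACGTG, or CACGTGA on the other strand, were found in 9 of the 28 members with a window (32.1%), against 4.29% of the 27025 genes with a window. The longer palindrome TCACGTGA, each match of which is also a match of the first, was found in 5 of 28 members (17.9%) against 1.12% of all genes. The 6 letters CACGTG, which both contain and which read the same on both strands, were found in 11 of 28 members (39.3%) against 8.09% of all genes. The 9 members with the 7 letters were Cln3, Ctsa, Ctsd, Gla, Glb1, Lamp1, Lgmn, Mcoln1 and Naglu. Asah1, Ctsb, Ctsh and Npc1 had no window. The 250 bases before the start are shown for 3 of these members and, for contrast, for Hexa, with the matches in capitals.
Ctsd (chr7:142387828-142388077, - strand): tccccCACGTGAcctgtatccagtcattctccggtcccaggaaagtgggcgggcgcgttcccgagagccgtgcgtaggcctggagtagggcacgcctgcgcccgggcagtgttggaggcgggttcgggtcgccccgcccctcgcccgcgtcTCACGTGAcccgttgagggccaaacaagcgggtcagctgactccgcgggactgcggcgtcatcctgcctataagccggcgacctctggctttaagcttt
Lamp1 (chr8:13158911-13159160, + strand): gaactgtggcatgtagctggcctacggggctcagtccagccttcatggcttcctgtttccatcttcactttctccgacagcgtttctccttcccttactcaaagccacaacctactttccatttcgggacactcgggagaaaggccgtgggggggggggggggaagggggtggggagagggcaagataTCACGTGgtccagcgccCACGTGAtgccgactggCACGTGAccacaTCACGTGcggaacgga
Mcoln1 (chr8:3500269-3500518, + strand): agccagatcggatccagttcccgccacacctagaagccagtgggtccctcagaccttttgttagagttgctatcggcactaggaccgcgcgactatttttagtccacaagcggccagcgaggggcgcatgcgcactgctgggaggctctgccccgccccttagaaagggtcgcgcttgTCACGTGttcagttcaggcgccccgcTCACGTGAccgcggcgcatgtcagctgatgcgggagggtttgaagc
Hexa (chr9:59539290-59539539, + strand): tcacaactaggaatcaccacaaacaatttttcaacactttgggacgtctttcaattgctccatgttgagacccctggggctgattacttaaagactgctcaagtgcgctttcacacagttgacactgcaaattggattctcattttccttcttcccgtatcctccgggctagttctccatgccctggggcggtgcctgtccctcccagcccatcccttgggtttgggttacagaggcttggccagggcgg
Ctsd held the palindrome 99 bases before its start and the shorter form 245 bases before it. Lamp1 held 4 matches within 62 bases of its start. Mcoln1 held 1 at 72 and the palindrome at 46 bases before the start. None of the 3 forms was found in the window of Hexa, or in those of Ctso, Psap, Ctsc and Ctss. A match describes these letters and is not a measured binding site.

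In HFD livers against chow livers, 3 members rose: Ctso, Hexa and Ctsd, by 1.74-fold, 1.55-fold and 1.50-fold. They encode cathepsin O, a cysteine protease, the alpha subunit of beta-hexosaminidase, which trims gangliosides, and cathepsin D, the main aspartic protease of lysosomes. None of the 31 fell with the probe used for its gene. The test was limma's moderated test with Benjamini-Hochberg adjustment over all features, with an adjusted p under 0.05 taken as passed. The 3 higher members were 9.68% of the 31, against 4.55% of all features called higher, and 0 lower compares with 6.39% of all features called lower. At an unadjusted p under 0.05, 10 members were higher and 1 was lower, against 5542 of the 17635 features in either direction. Taken in either direction, the members' share was close to that of all features. The difference was above 0 for 27 members and below 0 for 4, with a median of 0.17, while the median over all features was -0.04. All 3 HFD arrays lay above all 3 chow arrays for 14 members (45.2%), against 16.6% of all features. All 3 lay below for 1 member, Npc1 (3.23%), against 22.3% of all features. Without chow 2, or without HFD 3, Ctso alone was called, and with both left out none was. Without HFD+APS 1, a liver outside this comparison that enters through the shared spread, 6 members were called, with Ctsc, Lgmn and Psap added. In whole liver, fewer cells of a type and less RNA per cell cannot be told apart.

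**Figure D1:**
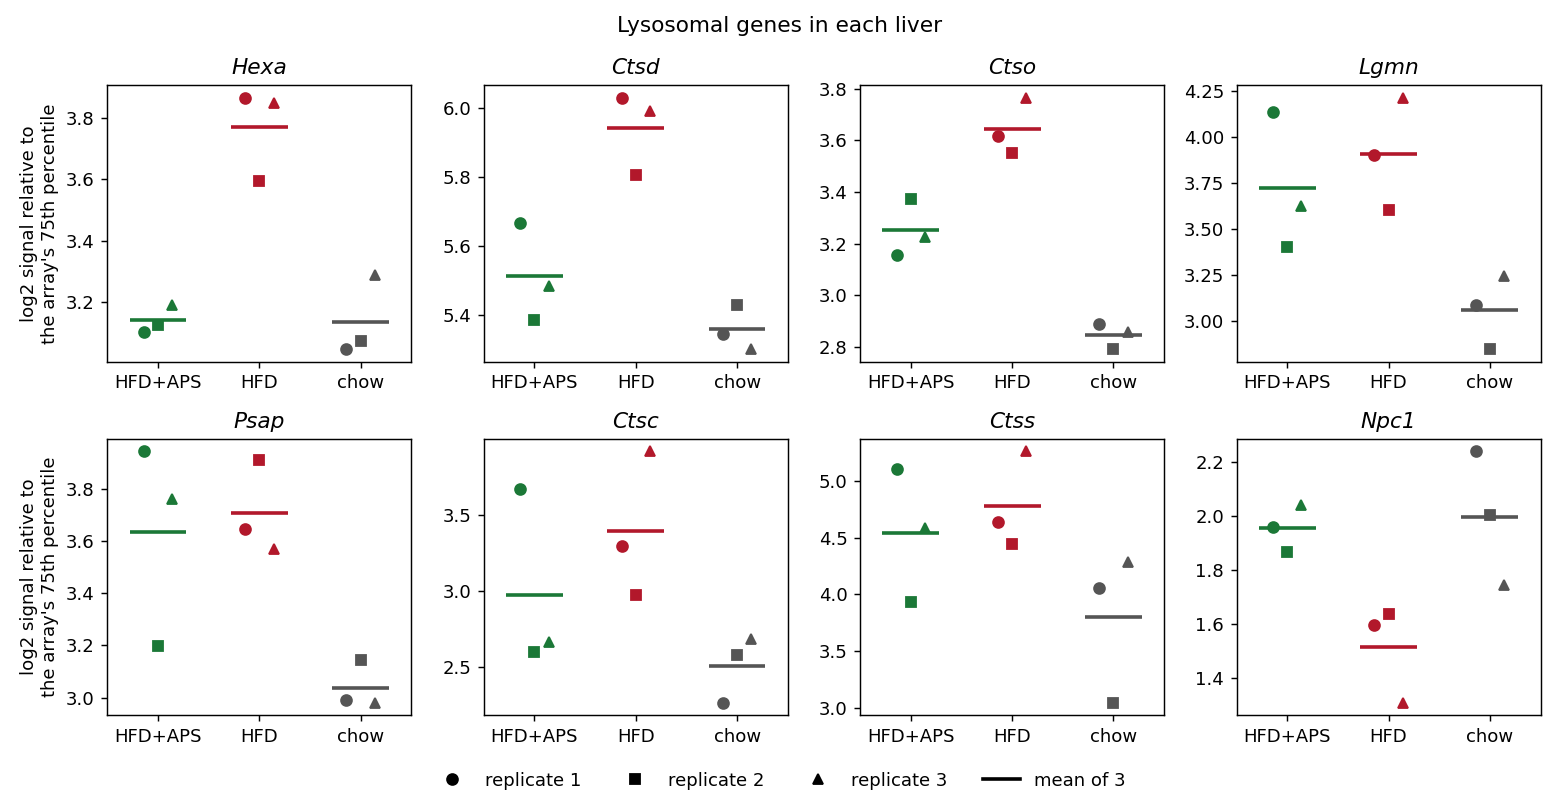
Log2 values of 8 members, scaled as in the text, 1 panel per gene with its own axis, in HFD+APS, HFD and chow livers from left to right. Circles, squares and triangles are livers 1, 2 and 3 of a group and bars are means; the 3 HFD livers lie above the 3 chow livers in 7 panels and below them in the panel of Npc1.

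Of the 10 cathepsins tested, Ctso and Ctsd passed the threshold in HFD against chow livers, and 8 had a difference above 0. Ctso, on chromosome 3 (mm9, 81759298 to 81759357, plus strand), read 3.62, 3.55 and 3.77 in HFD livers and 2.89, 2.79 and 2.86 in chow livers. The groups were far apart next to their spread, with means of 3.65 ± 0.11 in HFD and 2.85 ± 0.05 in chow livers (SD, n = 3 each), a difference of 0.80 ± 0.10 (SE) and a limma adjusted p of 0.0078. This call was kept in each fit that left out 1 array, with adjusted p values between 0.0067 and 0.0348.

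Ctsd, on chromosome 7 (149561962 to 149562021, minus strand), read 6.03, 5.81 and 5.99 in HFD livers and 5.34, 5.43 and 5.30 in chow livers. The lowest HFD liver stood above the highest chow liver, and the difference was 0.59 ± 0.11 with a limma adjusted p of 0.0215. The probe printed above, which reads across an intron, gave a difference of 0.68 for the same gene. The call was lost without any one of chow 1, chow 2, chow 3, HFD 1 or HFD 3, with adjusted p values of 0.0514, 0.0587, 0.0670, 0.0539 and 0.0605, and kept without each of the other 4 arrays. It was also lost with slide as a random block and with no filter on dim probes, and over all alternatives the adjusted p lay between 0.0128 and 0.120.

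Ctsc and Ctss, which encode cathepsin C, the activator of granule serine proteases of immune cells, and cathepsin S, a protease of antigen-presenting cells, had larger differences with larger spread. Ctsc read 3.29, 2.97 and 3.92 in HFD livers and 2.27, 2.58 and 2.69 in chow livers, a difference of 0.88 ± 0.33 with a limma adjusted p of 0.114. Ctss read 4.64, 4.44 and 5.27 in HFD livers and 4.06, 3.04 and 4.29 in chow livers, a difference of 0.99 ± 0.41 with a limma adjusted p of 0.141. Both groups were apart for both genes, but neither passed the test, and HFD 3 was the highest array for both.

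The other 6 cathepsins tested differed by -0.12 to 0.19, and their groups overlapped. Ctsb and Ctsl, the most studied cysteine cathepsins of liver, differed by 0.18 (95% interval -0.14 to 0.49) and 0.08 (-0.35 to 0.51). Ctsh differed by 0.05 (-0.15 to 0.25), Ctsz by 0.19 (-0.11 to 0.49), Ctsf by -0.12 (-0.44 to 0.19) and Ctsa, the protective protein of beta-galactosidase and neuraminidase, by -0.02 (-0.29 to 0.25). Over the 10 cathepsins tested, 2 rose, 0 fell and the median difference was 0.19.

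The other proteases were Lgmn, the asparaginyl endopeptidase that processes cathepsins, and Tpp1, a tripeptidyl peptidase. Lgmn, on chromosome 12 (103632575 to 103632634, minus strand), read 3.90, 3.60 and 4.22 in HFD livers and 3.09, 2.85 and 3.25 in chow livers. The difference was 0.85 ± 0.23 with a limma adjusted p of 0.0502, and over the alternative settings and single arrays left out the p lay between 0.0272 and 0.269. Tpp1 differed by 0.17 (95% interval -0.08 to 0.42), with overlapping groups.

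All 7 glycosidases had a positive difference in HFD against chow livers, 1 of them past the threshold, with a median of 0.32. Hexa, on chromosome 9 (59411712 to 59411771, plus strand), read 3.87, 3.59 and 3.85 in HFD livers and 3.04, 3.07 and 3.29 in chow livers. The difference was 0.63 ± 0.12 with a limma adjusted p of 0.0182. The call was lost without chow 2 (0.0660) or HFD 3 (0.0549) and kept without each other array.

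Neu1, a sialidase, read 4.46, 4.49 and 4.85 in HFD livers and 4.40, 4.20 and 3.99 in chow livers, a difference of 0.40 ± 0.14 with a limma adjusted p of 0.103. Gla, the alpha-galactosidase A that is deficient in Fabry disease, read -0.55, -0.60 and -0.05 in HFD livers and -0.81, -0.82 and -0.71 in chow livers. Its difference was 0.38 ± 0.16 with a limma adjusted p of 0.146. The groups were apart for both genes, with HFD 3 the highest, and neither passed. Gusb, the beta-glucuronidase, Glb1, the beta-galactosidase, Naglu, which cuts heparan sulphate, and Man2b1, the alpha-mannosidase, differed by 0.32, 0.20, 0.15 and 0.08, with limma adjusted p values between 0.177 and 0.581. Naglu read 1.60, 1.56 and 1.67 in HFD livers and 1.54, 1.28 and 1.55 in chow livers, and Man2b1 4.62, 4.49 and 4.48 in HFD livers and 4.48, 4.39 and 4.48 in chow livers. In both the lowest HFD liver was barely above the highest chow liver.

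Of the 4 lipid genes, Psap and Asah1 had the larger differences in HFD against chow livers, and none passed with the probe used. Psap encodes prosaposin, the precursor of the saposins that present sphingolipids to hydrolases. It read 3.65, 3.91 and 3.57 in HFD livers and 2.99, 3.14 and 2.98 in chow livers, a difference of 0.67 ± 0.19 with a limma adjusted p of 0.0609. Asah1, the acid ceramidase, read 0.80, 0.92 and 0.97 in HFD livers and 0.63, -0.15 and 0.52 in chow livers, a difference of 0.57 ± 0.20 with a limma adjusted p of 0.0946. For Asah1 the spread in chow came from chow 2, which stood well under the other chow livers. Lipa, the acid lipase that frees cholesterol and fatty acids, differed by 0.09 (95% interval -0.26 to 0.44), and Npc2, the cholesterol carrier of the lysosome lumen, by 0.17 (-0.27 to 0.61).

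Of the membrane proteins, 0 of 8 passed the threshold with the probe used in HFD against chow livers, with a median of 0.03. Lamp1, the abundant glycoprotein of the lysosome wall whose promoter held 4 matches, differed by 0.02 (95% interval -0.25 to 0.29). Scarb2, which carries glucocerebrosidase to the lysosome, differed by 0.00 (-0.26 to 0.27), Mcoln1, a calcium channel, by 0.04 (-0.26 to 0.34), and Laptm4a by 0.08 (-0.14 to 0.30). Lamp2, which serves in fusion with autophagosomes, differed by 0.14 (-0.07 to 0.35), and Cln3, the protein lost in a juvenile form of Batten disease, by -0.15 (-0.41 to 0.12). Together these intervals reach from -0.41 to 0.35. Lamp2 read 6.97, 6.97 and 6.90 in HFD livers and 6.75, 6.83 and 6.84 in chow livers, narrowly apart, while the other 5 overlapped.

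A pair of membrane proteins stood out, in opposite directions. Npc1, the transporter that moves cholesterol out of lysosomes, on chromosome 18, read 1.59, 1.64 and 1.31 in HFD livers and 2.24, 2.0 and 1.74 in chow livers. It was the only member with all 3 HFD livers below all 3 chow livers, by -0.48 ± 0.15, with a limma adjusted p of 0.0750. Laptm5, a membrane protein of blood-derived cells, read 0.79, 0.39 and 1.19 in HFD livers and 0.33, -0.20 and 0.22 in chow livers, by 0.67 ± 0.31, with a limma adjusted p of 0.173.

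**Figure D2:**
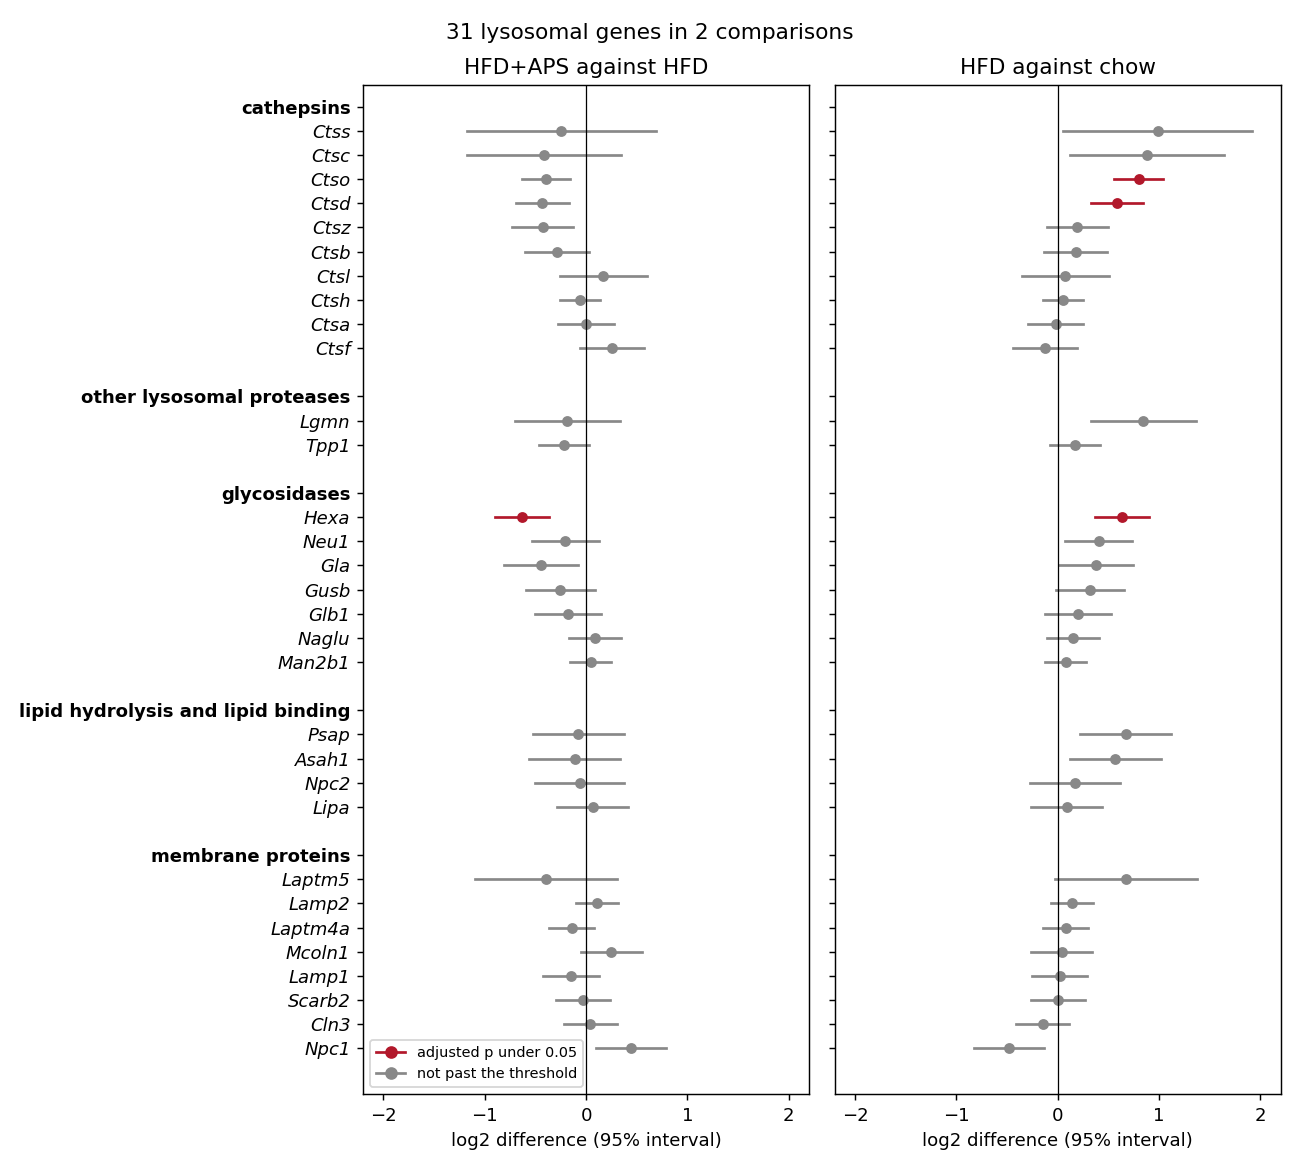
Log2 differences of the 31 members tested, 1 row per gene, grouped by class. HFD+APS against HFD is on the left and HFD against chow on the right, with 95% intervals of limma's moderated test; red marks the 1 gene past the threshold on the left and the 3 past it on the right.

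Markers of macrophages and of some other cells, but not of all cell types, moved with the same comparison. A list's score is the mean over its genes of the log2 value after subtracting the gene's mean over the 9 arrays. Shares of a list called are to be read beside the 4.55% of all features called higher and the 6.39% called lower. The 14 Kupffer cell and resident macrophage markers scored 0.05 to 0.54 in HFD livers and -1.06 to -0.01 in chow livers, with a median difference of 1.07. Of them 1 rose, Fcgr1 (7.14%), and 10 were higher at an unadjusted p under 0.05. The 10 monocyte and lipid-associated macrophage markers tested scored 0.19 to 1.15 in HFD livers and -0.76 to -0.13 in chow livers. Ly6c2 and Trem2 rose (20%), while Cx3cr1 and Gpnmb were not well above background on enough arrays.

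The 10 sinusoidal endothelial markers scored 0.13 to 0.23 in HFD livers and -0.81 to -0.11 in chow livers, with 3 higher (30%). The low end was chow 2, while chow 1 and chow 3 scored -0.11 and -0.23. The 10 stellate cell markers scored 0.21 to 0.71 in HFD livers and -0.89 to 0.08 in chow livers, with 2 higher (20%). Again chow 2 was the low end, while chow 1 and chow 3 scored 0.08 and -0.38. The 4 of 8 neutrophil markers tested scored -0.31 to 3.58 in HFD livers, with HFD 3 at the top, and -1.04 to -0.37 in chow livers, with none called. The 10 hepatocyte markers scored -0.24 to 0.00 in HFD livers and 0.07 to 0.14 in chow livers, with 1 lower (10%). The 8 lymphocyte markers tested scored -0.29 to 0.18 in HFD livers and 0.06 to 0.50 in chow livers, with 1 lower (12.5%). The 7 cholangiocyte markers tested scored -0.50 to 0.47 in HFD livers and -0.17 to 0.24 in chow livers, with none called. All 3 HFD livers were above all 3 chow livers on the Kupffer, monocyte, endothelial and stellate lists, and narrowly on the neutrophil list. The same held for the cathepsins (0.02 to 0.36 in HFD and -0.27 to -0.10 in chow livers) and the glycosidases (0.03 to 0.31 in HFD and -0.24 to -0.05 in chow livers). It also held for the lipid genes (0.04 to 0.20 in HFD and -0.39 to -0.11 in chow livers) and the other proteases (0.07 to 0.44 in HFD and -0.35 to -0.16 in chow livers). The membrane proteins overlapped. The 3 marker genes named here were singled out after their values were seen, and the part of these cells in the members' differences was not tested.

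**Figure D3:**
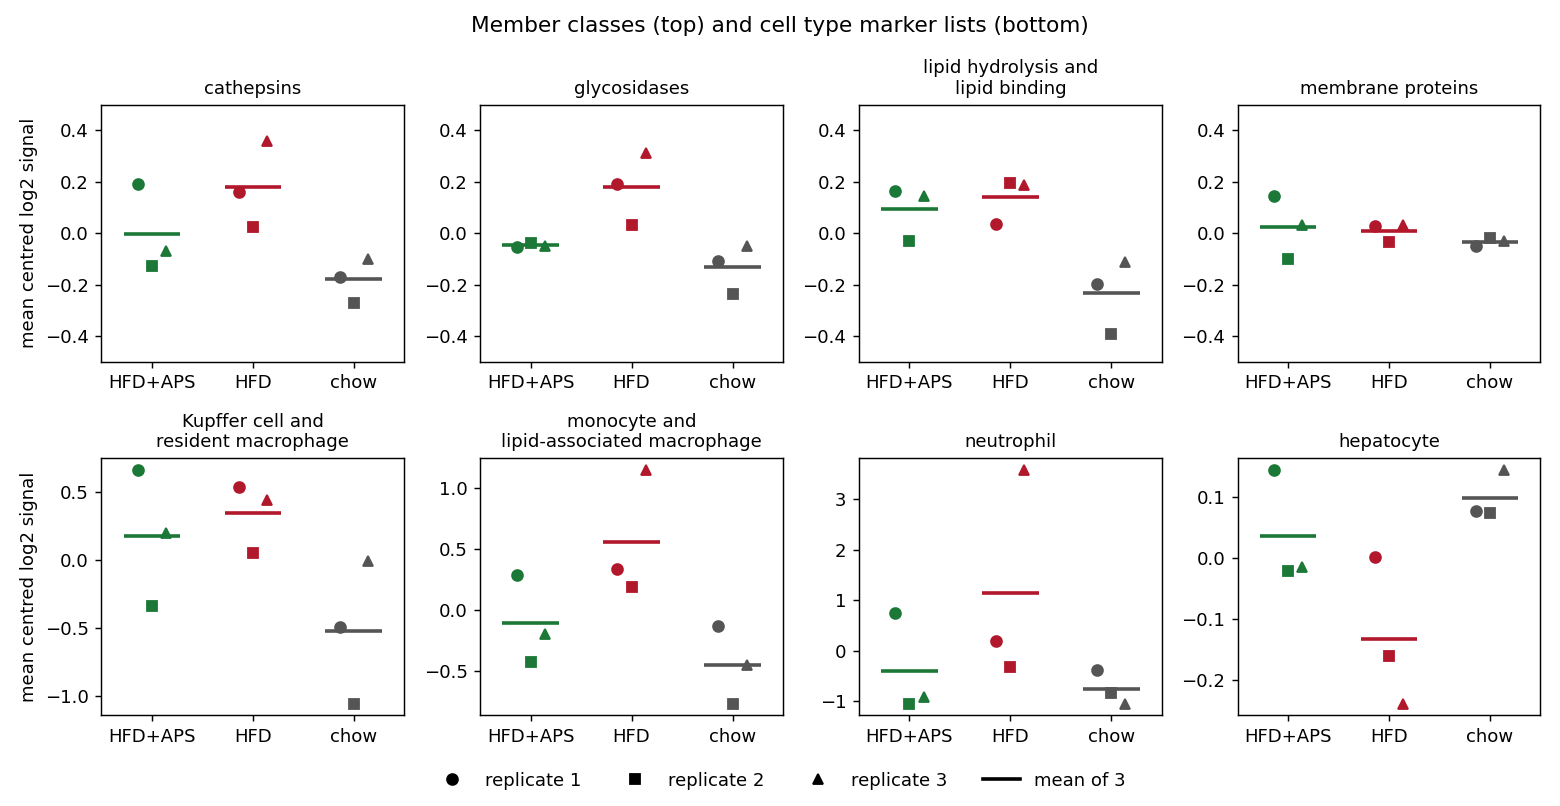
Scores of 4 classes of members (top) and of 4 cell marker lists (bottom), each the mean over genes of the log2 value centred on the 9 arrays, in HFD+APS, HFD and chow livers from left to right. Circles, squares and triangles are livers 1, 2 and 3 and bars are means; chow 2 is the lowest array of the Kupffer list and HFD 3 the highest of the neutrophil list.

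In HFD+APS livers against HFD livers, 1 member fell, Hexa, and none rose. That is 3.23% of the 31, against 1.03% of all features called lower, while 0.476% were called higher. Hexa read 3.10, 3.12 and 3.19 in HFD+APS livers and 3.87, 3.59 and 3.85 in HFD livers. The 3 HFD+APS livers lay close together and below each HFD liver, including HFD+APS 1, which shared the HFD livers' slide. The difference was -0.63 ± 0.12, a ratio of 0.65, with a limma adjusted p of 0.0434. The call did not hold in any of the 9 fits that left out 1 array, chow arrays included, with adjusted p values between 0.0547 and 0.136, nor with slide as a fixed block, where the difference was -0.67.

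The difference was below 0 for 21 members and above 0 for 10 in HFD+APS against HFD livers, with a median of -0.14, against 0.00 over all features. All 3 HFD+APS livers lay below all 3 HFD livers for 8 members (25.8%), against 11.8% of all features: Ctsb, Ctsd, Ctso, Ctsz, Gla, Hexa, Neu1 and Tpp1. They lay above for 3 members (9.68%), against 12.6% of all features: Ctsf, Mcoln1 and Npc1. At an unadjusted p under 0.05, 5 members were lower and 1 was higher, against 3150 of the 17635 features in either direction. Here too the share in either direction was close to that of all features. With slide as a fixed block, which compares HFD+APS 1 with HFD on their slide, the members' median was -0.0085. It was -0.0752 without HFD 3 and -0.0819 without HFD+APS 2.

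Ctsd read 5.67, 5.38 and 5.48 in HFD+APS livers, below the HFD livers, by -0.43 ± 0.11 with a limma adjusted p of 0.107. Ctso read 3.16, 3.37 and 3.22 in HFD+APS livers, by -0.39 ± 0.10 with a limma adjusted p of 0.109. Ctsz, cathepsin Z, a carboxypeptidase, read 5.69, 5.42 and 5.39 in HFD+APS livers and 5.98, 5.72 and 6.09 in HFD livers, by -0.43 ± 0.13 with a limma adjusted p of 0.152. For these 3 cathepsins the groups were apart, with none past the threshold. Gla read -0.77, -1.01 and -0.75 in HFD+APS livers, by -0.44 ± 0.16 with a limma adjusted p of 0.202. Npc1 read 1.96, 1.86 and 2.04 in HFD+APS livers, above the HFD livers, by 0.44 ± 0.15 with a limma adjusted p of 0.186.

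Smaller differences also separated the groups. Ctsb read 6.67, 6.44 and 6.64 in HFD+APS livers and 6.67, 6.87 and 7.06 in HFD livers, and Tpp1 5.15, 5.08 and 5.08 in HFD+APS livers and 5.27, 5.29 and 5.41 in HFD livers. Neu1 read 4.36, 4.44 and 4.39 in HFD+APS livers, just under its lowest HFD liver. In the other direction, Ctsf, cathepsin F, read 1.39, 1.37 and 1.23 in HFD+APS livers and 1.22, 1.12 and 0.88 in HFD livers, and Mcoln1 3.82, 3.77 and 4.0 in HFD+APS livers and 3.40, 3.76 and 3.68 in HFD livers. For Ctsb and Mcoln1 the nearest livers of the groups differed by 0.01 or less, and the 5 limma adjusted p values were between 0.317 and 0.485.

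Some members with a larger spread in HFD livers did not separate from HFD+APS livers, and HFD+APS 1 stood above the other HFD+APS livers for several. Ctsc read 3.66, 2.60 and 2.66 in HFD+APS livers, Ctss 5.11, 3.93 and 4.58, Lgmn 4.14, 3.40 and 3.63, and Laptm5 0.99, -0.09 and 0.29. In each of these 4 genes HFD+APS 1 lay within the range of the HFD livers, and their limma adjusted p values were between 0.530 and 0.793. The Kupffer list scored 0.66, -0.34 and 0.20 in the 3 HFD+APS livers, with HFD+APS 1 above each HFD liver, and the monocyte list 0.29, -0.42 and -0.19. The part of the slide and of macrophages in these values was not tested. Psap (3.94, 3.20 and 3.76 in HFD+APS livers) and the other 3 lipid genes differed from HFD by -0.11 to 0.07.

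In HFD+APS livers against chow livers, 0 of 31 members passed the threshold in either direction. Of all features, 0.964% were called higher and 2.52% lower. At an unadjusted p under 0.05, 5 members were higher and 0 lower, against 4436 of the 17635 features in either direction. The members' share in either direction was smaller than that of all features. The median difference was 0.12, with 20 members above 0 and 11 below. All 3 HFD+APS livers lay above all 3 chow livers for 8 members (25.8%), against 12.7% of all features, and below for 0, against 18.2% of all features. The 8 were Asah1, Ctso, Lamp2, Lgmn, Man2b1, Mcoln1, Naglu and Psap. Ctso had the lowest limma adjusted p, 0.0663, with a difference of 0.41 ± 0.10. Psap differed by 0.60 (95% interval 0.15 to 1.04), Lgmn by 0.66 (0.14 to 1.18) and Lamp2 by 0.25 (0.05 to 0.46). Hexa, called in the other 2 comparisons, differed here by 0.00 (-0.26 to 0.27), and Npc1 by -0.04 (-0.39 to 0.31). Without chow 2 the members' median was 0.02. Each group enters 2 of the 3 comparisons, which are therefore not independent.

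Other genes of the lysosome were counted in the same fit, from lists by role. Of 29 other soluble hydrolases tested, 4 rose (13.8%) and 0 fell in HFD against chow livers, with a median of 0.12. Of all features, 4.55% were called higher and 6.39% lower. Aga (0.77), Ppt1 (0.77) and Sgsh (0.64), which cut glycoproteins, remove palmitate from proteins and remove sulphate from heparan sulphate, were among those that rose, with limma adjusted p values of 0.0069, 0.0125 and 0.0362. Aga and Ppt1 kept the call with any 1 array left out, and Sgsh lost it without any array but chow 1 and HFD+APS 1 (up to 0.0966).

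Of 19 other membrane proteins tested, 5 rose (26.3%, against 4.55% of all features) and 0 fell in HFD against chow livers. The list's median was 0.37, and among those that rose were Abcb9, a peptide transporter (1.19), Mfsd1 (0.63), and Clcn7, a chloride-proton exchanger (0.61), with limma adjusted p values of 0.0055, 0.0124 and 0.0194. Abcb9 and Mfsd1 kept the call with any 1 array left out, while Clcn7 lost it without chow 1, chow 3 or HFD 3 (up to 0.0625). Gpnmb was not tested, and Cd68 is also a macrophage marker in the lists used here. Of 17 subunits of the vacuolar ATPase, the proton pump, with a median of 0.17, 1 rose (5.88%, near the 4.55% of all features). It was Atp6v0e, by 0.48 with a limma adjusted p of 0.0230, but the mean of its detected probes gave -0.0127, and dropping HFD 2, HFD 3 or one of the chow arrays ended the call (up to 0.0746).

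In sorting to the lysosome, 1 of 15 genes rose (6.67%) and 2 fell (13.3%) in HFD against chow livers, with a median of 0.10. Of all features, 4.55% were called higher and 6.39% lower. Sort1, which encodes the sorting receptor sortilin, read -1.32, -1.50 and -0.82 in HFD livers and 0.03, -0.13 and -0.33 in chow livers, a difference of -1.07 ± 0.20 with a limma adjusted p of 0.0191. Gga3, an adaptor of the same route, fell by 0.56 with a limma adjusted p of 0.0148. Vps35, a subunit of the retromer that returns receptors to the Golgi, rose by 0.41 with a limma adjusted p of 0.0333. Leaving out 1 array ended the call of Sort1 for chow 1, chow 2 or HFD 2 (up to 0.0665), of Gga3 for chow 2 or chow 3 (up to 0.0535) and of Vps35 for each array but HFD+APS 1 (up to 0.0926). Of 17 regulators, among them Tfeb and Tfe3, with a median of -0.04, 1 rose (5.88%, near the 4.55% of all features). That was the autophagosome protein gene Map1lc3b, by 0.40 with a limma adjusted p of 0.0306. Of the cathepsin inhibitors 2 of 7 were tested, and Cstb, cystatin B, rose by 0.50 with a limma adjusted p of 0.0356. Map1lc3b lost the call (up to 0.0822) with each array dropped except HFD+APS 1 and 2, and Cstb (up to 0.101) when HFD+APS 3, HFD 1, HFD 3 or one of the chow arrays was dropped.

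In HFD+APS against HFD livers, Abcb9 and Arsa of these lists fell, while 1.03% of all features were called lower. Abcb9 read 0.34, 0.52 and 0.78 in HFD+APS livers and 1.47, 1.29 and 1.59 in HFD livers, a difference of -0.91 ± 0.14 with a limma adjusted p of 0.0289. Arsa, the arylsulfatase that degrades sulphatide, differed by -0.63 ± 0.11 with a limma adjusted p of 0.0432. Each of the 3 HFD+APS livers was below each HFD liver for both genes, but the calls were not kept with 1 array left out. Abcb9 lost its call without chow 3, HFD 1, HFD 3 or HFD+APS 2 (limma adjusted p up to 0.0969) and Arsa without any one array (up to 0.134).

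**Figure D4:**
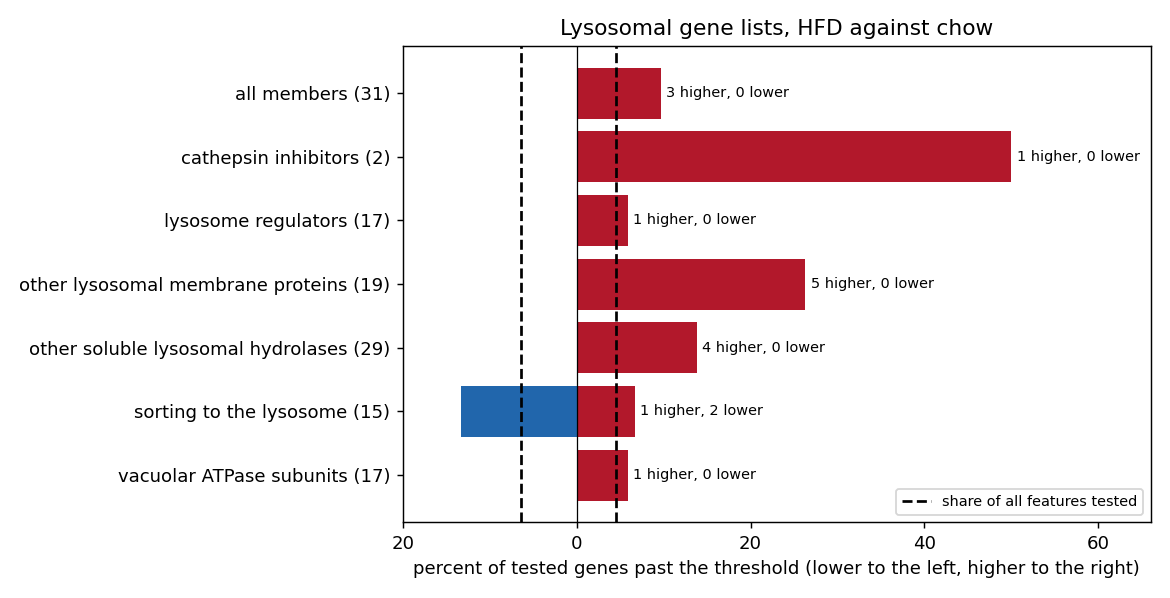
Percent of tested genes called higher and lower in HFD against chow livers, for the members and for each other list of lysosomal genes, with the number tested. Bars start at 0, and dashed lines mark the shares over all features, 4.55% higher and 6.39% lower.

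More than 1 probe was tested for 20 of the 31 members, and in 6 of them the probes differed in sign in HFD against chow livers: Ctsa, Gla, Lamp2, Laptm4a, Lipa and Scarb2. The brightest probe stood for its gene throughout. The 4 probes of Ctsa ranged from -0.62 to 0.26 and the 3 of Lamp2 from -0.17 to 0.14. Gla gave 0.38 with the probe used and -0.09 with the other, and Lipa 0.09 and -0.34. Mcoln1 gave 0.04 with the probe used and 0.63 with the other, a case of 1 sign but unequal size. In a fit of single probes, the probe of Cln3 that was not used fell in HFD against chow livers. Its difference was -0.53 with a limma adjusted p of 0.0431. The probe of Psap that was not used rose by 0.65 with a limma adjusted p of 0.0418. In HFD+APS against HFD livers, probes also differed in sign for some members whose groups stood apart. With the probe used and the other, Ctsb gave -0.28 and 0.11, Gla -0.44 and 0.29, Mcoln1 0.25 and -0.22, and Npc1 0.44 and -0.01. Both probes were below 0 for Ctsd, Ctsz, Neu1 and Tpp1. Hexa and Ctso each had 1 probe tested, so no second probe bears on them.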

How the data were processed

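Total RNA of 9 livers, 3 per diet, was hybridised by the authors to 1-colour (Cy3) Agilent mouse arrays and read with Feature Extraction (10.7.1.1, as the headers state). The deposited values used are, per the file headers, spot intensities after background subtraction within the array, with no scaling between arrays. A deposited table of all samples holds the authors' log2 values. The submitters' processing notes list limma but not its use, the normalization step is not given in the sources used here, and the table served as an alternative.

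Here, spots with a non-uniformity or population outlier flag were dropped, log2 intensities of replicate spots were averaged, and the 75th percentile of the array was taken off (R 4.3.3). Of 41174 probes, 26477 were well above background on at least 3 arrays, and the brightest probe of each gene gave 17635 features, with 5 values missing. Of the probes, 27668 were named through their own accession in RefSeq, 85 through another, 5533 by symbol and 460 by synonym, and 7428 had no match. Groups were compared with limma 3.58.1 in 1 fit over the 9 arrays, with Benjamini-Hochberg adjustment over all features, a threshold of 0.05 and intervals at 95%. Probes are in mm9 coordinates, promoters in GRCm38.p6, and exon or intron positions were not determined. The fit was tested on simulated data.

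Values in each array of the 2 groups compared are given for members past the threshold. They are also given for members whose groups stood apart in HFD against chow or in HFD+APS against HFD livers. Of each other list, up to 4 genes per comparison past the threshold are named, and some items are not reported here. The members and lists were chosen with earlier results of these data known. Alternatives changed the background correction, scaling, filter, probe choice, slide, replicate block, weights and arrays.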

Additional observations from a re-analysis of the deposited data

How the results depend on the processing

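The count of members higher in HFD against chow livers, 3, was 5 with normexp background correction, with the filter asking for all 9 arrays, with the mean of detected probes, with array weights and with only the 2 groups compared, and 2, with Ctsd lost, without the filter on dim probes and with slide as a random block. It lay between 1 and 6 when 1 array was left out, and was 0 with chow 2 and HFD 3 both left out, an alternative chosen after seeing the data. The count lower in HFD+APS against HFD livers, 1, was 2 with array weights and 0 without the filter on dim probes, with slide as a random or fixed block, with only the 2 groups compared, with each array left out in turn (0 to 0), and with chow 2 and HFD 3 left out. The members' median in that comparison, -0.14, was -0.0085 with slide fixed and between -0.187 and -0.0752 with 1 array left out. In HFD+APS against chow livers the count higher, 0, was 1 with the filter asking for all 9 arrays and 3 with array weights. The median there, 0.12, lay between 0.0204 and 0.140 with 1 array left out and was 0.0204 with chow 2 and HFD 3 left out. The cause was not tested. Same-numbered livers' deviations from their group means correlated at -0.175 to 0.164, so no clear pairing by replicate number was seen. With 3 arrays per group these values cannot exclude a pairing. With the replicate block 4 members, Lgmn added, were higher in HFD against chow livers and 0 lower in HFD+APS against HFD livers.

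Of 111 results for named genes, 2254 values were computed over the alternatives, of which 1994 kept direction and side and 1 reversed, Atp6v0e at -0.0127. Of the 22 called, 1 was called under every alternative. Slide and diet coincide in HFD against chow livers, 3 livers per group were picked, and dim probes such as those of Ctsk limit what can be read.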
